A study of Cerrena unicolor with 12 samples.

Results

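In hyphae of the white rot fungus *Cerrena unicolor* 87613, 104 genes differed between fructose and glucose cultures in the same direction at both sampled days. They were chosen by their own fructose and glucose values, as genes whose ID begins with A, which the study lists neither under an enriched KEGG pathway nor among its glutathione genes, and whose value averaged at least 50 over 12 libraries. After rescaling, all 6 fructose libraries of a chosen gene lay above, or all 6 below, all 6 glucose libraries, and the ratio of the 2 sugar means was at least 1.5. Of the 11281 genes in the deposited table, 7736 could be chosen, 31 (0.401%) met the criteria with higher values in fructose and 73 (0.944%) with lower values in fructose. These shares are set by the choice itself, so that the sugar difference of the chosen genes is described here and not tested.

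The libraries came from wild-type hyphae of this single strain, shaken at 200 rpm and 30°C in potato dextrose medium whose carbon source was either fructose or glucose. Mycelia were taken at cultivation day 10 (Cd-10) or day 6 (Cd-6), with 3 replicate cultures in each of the 4 groups, namely fructose Cd-10, fructose Cd-6, glucose Cd-10 and glucose Cd-6. The comparison of the sugars asks which transcripts depend on the carbon source, and that of the days which ones change as the culture ages. In a bulk culture, more transcript per cell cannot be told apart from more cells that carry it.

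Glucose and fructose are hexoses that fungi import through membrane transporters and phosphorylate before glycolysis. In the yeast *Saccharomyces cerevisiae* and in many filamentous fungi, ample glucose represses genes needed for other carbon sources, which is known as carbon catabolite repression, and fructose can act in a similar way. White rot fungi degrade lignin with secreted oxidative enzymes, laccase among them. The files give no product, position or sequence for any of the 104 genes, and 0 of the 11281 IDs could be matched to the reference annotation at hand, which belongs to another strain, so that the genes appear here under their IDs and without a function.

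The deposited values are read counts divided by 1 size factor per library, and they were rescaled over all 12 libraries because the size factors had been set within each sugar. Between 10279983 and 12126094 reads per library stood behind them. The 104 genes rested on at least 7 reads in every library, and 101 of them on at least 20. Day was the leading axis of a principal component analysis of 10387 genes, with 43.0% of the variance, so that sugar was not the main difference among the libraries. On the next axis, with 18.1%, the sugars lay apart at Cd-6 (fructose -32.8 to -23.7, glucose 13.3 to 62.6) and overlapped at Cd-10. Glucose Cd-6 replicate 2 lay there at 62.6, apart from glucose Cd-6 replicates 1 and 3 at 13.3 and 32.0. On the third axis, with 10.2%, the sugars lay apart at Cd-10 (fructose -41.9 to -13.1, glucose 20.7 to 32.1) and overlapped at Cd-6. The median spread within groups (SD of log2 values) was 0.30 for the chosen genes and 0.25 for all 7736 genes that could be chosen.

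Across the chosen genes, lower expression in fructose was the more frequent pattern and had the larger median fold. The split depended on the threshold of the fold, since without it 75 genes were higher and 90 lower in fructose. The 31 genes higher in fructose had a median fold of fructose over glucose of 1.66 (range 1.51 to 6.81), with 9 genes at 2 or more and 2 at 5 or more. For the 73 genes lower in fructose, the median fold of glucose over fructose was 1.95 (range 1.504 to 21.2), with 32 genes at 2 or more and 4 at 5 or more. The fold of 21.2 was that of A02500 alone. The next was 5.51 for A00144, below the 6.81 reached in the other direction. The first set took 0.481% to 0.750% of all values in the fructose libraries and 0.327% to 0.385% in the glucose libraries. The second set took 0.173% to 0.260% in fructose and 0.367% to 0.803% in glucose. Both sets were therefore a small fraction of the transcripts under either sugar. The mean value of a gene over 12 libraries ran from 62.3 to 9654 (median 691) in the first set and from 52.4 to 5239 (median 274) in the second, as counts without correction for gene length.

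**Figure D1:**
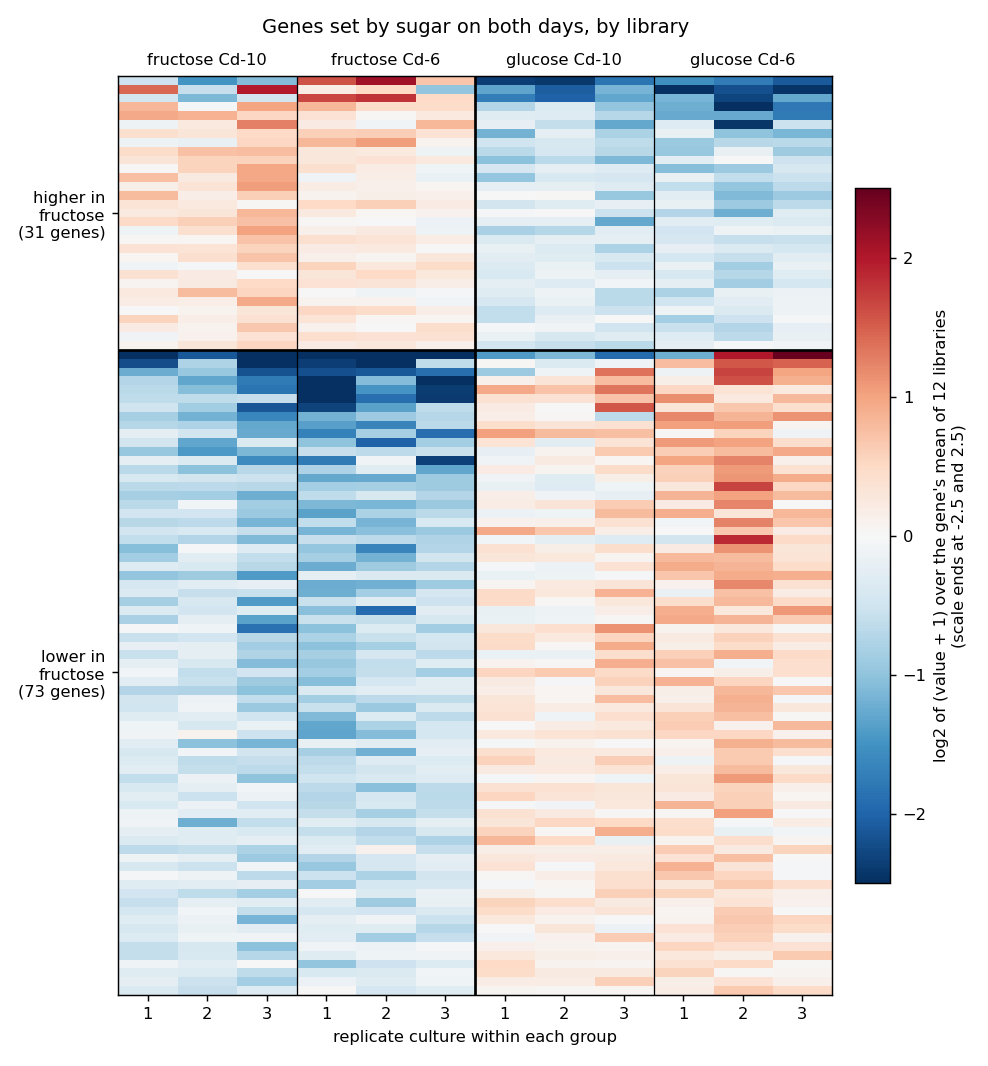
Each row is 1 of the 104 chosen genes and each column 1 library, grouped as fructose Cd-10, fructose Cd-6, glucose Cd-10 and glucose Cd-6 with 3 cultures each. Colour gives the log2 of (value + 1) over the gene's mean of 12 libraries, and within each set the genes are sorted by the size of their fold. The upper 31 rows are higher in all 6 fructose libraries and the lower 73 rows in all 6 glucose libraries, with the darkest column of the lower block in glucose Cd-6 replicate 2.

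The distance between the sugars was often narrow. The nearest fructose and glucose libraries of a gene were 1.08-fold apart in the median for genes higher in fructose (range 1.002 to 1.43) and 1.11-fold apart for genes lower in fructose (range 1.002 to 1.89). The distance was under 1.1-fold for 20 of the 31 and for 35 of the 73 genes. It reached 1.5-fold for 0 of the 31 and for 5 of the 73. At the threshold of the fold, A04874 (1.505) was taken and A04813 (1.490) was not among genes higher in fructose, while among genes lower in fructose A05110 (1.504) was taken and A08422 (1.469) was not. At the threshold of the mean, A08393 (61.8) and A10286 (53.2) were taken, whereas A06625 (32.4) and A00114 (47.8) met all other criteria and were not. Among IDs that do not begin with A, 2 of 684 with a mean of at least 50 met the other criteria with higher values in fructose and 1 with lower values. Of the 90 genes on the study's lists that passed the same mean, 0 met them in either direction. The study selected these lists by the change with day in glucose, and whether this bears on the count was not tested. Among the genes that could be chosen, only 0.401% and 0.944% met the criteria, so that a count of 0 says little.

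The widest folds of fructose over glucose belonged to A01116 and A05485. The rescaled count of A01116 was 472, 241 and 321 in fructose Cd-10 and 2047, 2933 and 1108 in fructose Cd-6, against 133, 127 and 191 in glucose Cd-10 and 233, 202 and 159 in glucose Cd-6. Fructose exceeded glucose 6.81-fold over both days, 2.29-fold at Cd-10 and 10.2-fold at Cd-6. The 2 sugars nearly met, at 241 in a fructose Cd-10 culture and 233 in a glucose Cd-6 culture. For A05485 the counts were 4868, 1208 and 7082 in fructose Cd-10 and 2027, 2541 and 900 in fructose Cd-6, against 722, 430 and 797 in glucose Cd-10 and 204, 392 and 329 in glucose Cd-6. Its fold was 6.48, at nearly equal size on the 2 days, although single fructose cultures differed widely. With each library left out in turn, the folds ranged from 4.81 to 7.90 for A01116 and from 4.82 to 7.47 for A05485.

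Among genes higher in fructose, A10339 and A02480 had the highest counts and modest folds of 1.54 each. A10339 gave 10062, 11313 and 13625 in fructose Cd-10 and 12417, 12047 and 10845 in fructose Cd-6, against 8121, 7753 and 9181 in glucose Cd-10 and 8110, 5299 and 7080 in glucose Cd-6. A02480 gave 6834, 10023 and 8415 in fructose Cd-10 and 5854, 5354 and 5605 in fructose Cd-6, against 4693, 5304 and 3633 in glucose Cd-10 and 3329, 5111 and 5231 in glucose Cd-6. The sugars of A02480 almost touched, at 5354 in fructose Cd-6 and 5304 in glucose Cd-10. The clearest separations among genes higher in fructose were those of A09282 and A08282. A09282 held 84.4, 79.4 and 89.9 in fructose Cd-10 and 96.6, 98.4 and 82.5 in fructose Cd-6, against 27.4, 54.6 and 36.4 in glucose Cd-10 and 55.6, 31.4 and 28.4 in glucose Cd-6. Here the lowest fructose library exceeded the highest glucose library 1.43-fold, and the mean fold was 2.27. A08282 averaged 468 ± 70.8 in fructose Cd-10 and 316 ± 37.0 in fructose Cd-6, against 201 ± 30.1 in glucose Cd-10 and 102 ± 19.5 in glucose Cd-6 (SD, n = 3 each). Its fold was 2.59, the nearest libraries of the sugars were 1.25-fold apart, and each group also lay apart from the other 3.

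**Figure D2:**
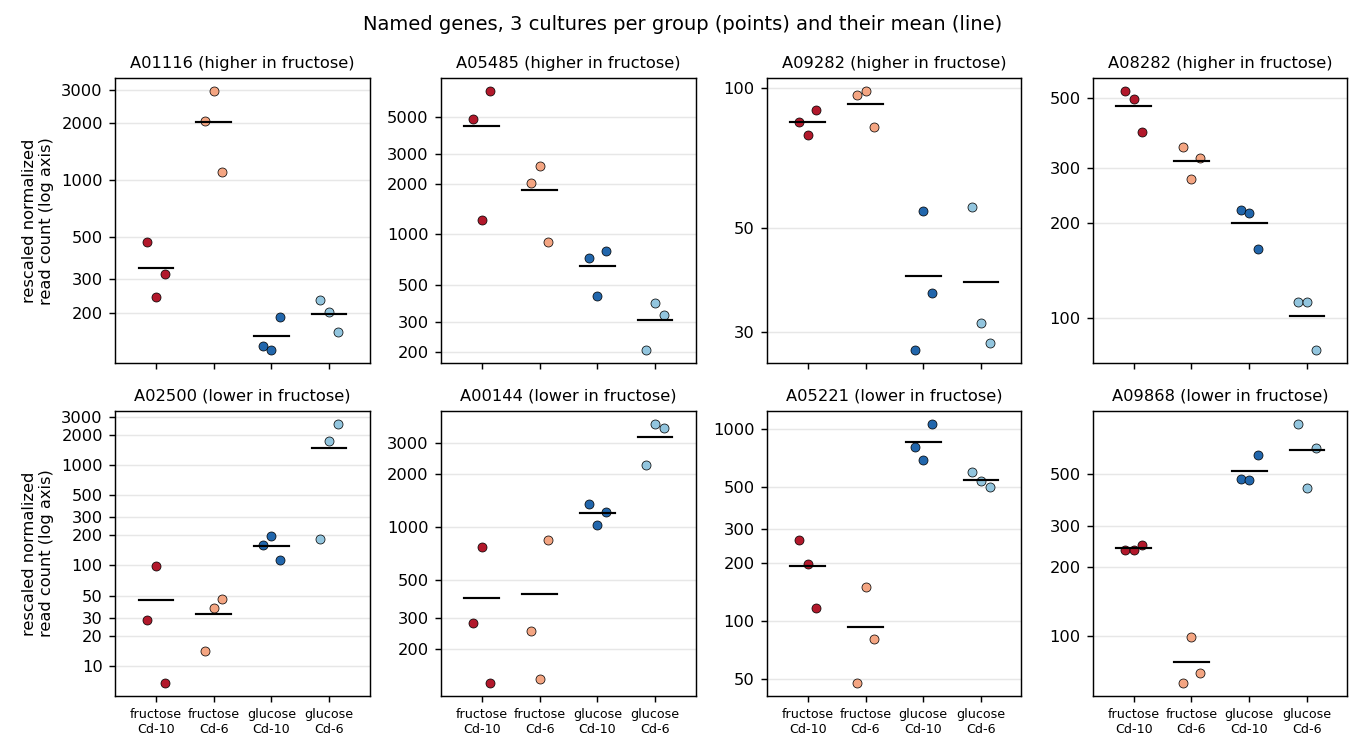
Points are the 3 cultures of each group, lines their mean, and the vertical axis of each panel gives the rescaled normalized read count on a log scale. A01116, A05485, A09282 and A08282 are higher in fructose, and A02500, A00144, A05221 and A09868 lower. In every panel all fructose points lie on 1 side of all glucose points, with A01116 highest in fructose Cd-6 (1108 to 2933) and A02500 highest in 2 glucose Cd-6 cultures (1720 and 2561).

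Among genes lower in fructose, A02500 had the largest fold and the most uneven cultures. Its count was 28.8, 99.0 and 6.77 in fructose Cd-10 and 14.1, 37.6 and 46.3 in fructose Cd-6, against 160, 197 and 113 in glucose Cd-10 and 185, 1720 and 2561 in glucose Cd-6. Glucose exceeded fructose 21.2-fold, but glucose Cd-6 replicates 2 and 3 alone carried the high values, while replicate 1 lay near the Cd-10 cultures. The fold was 12.3 without glucose Cd-6 replicate 3 and 30.8 without fructose Cd-10 replicate 2, and A02500 was the only 1 of the 104 genes whose fold moved by over 1.5 times when a single library was left out. A00144 gave 283, 769 and 129 in fructose Cd-10 and 256, 135 and 845 in fructose Cd-6, against 1345, 1025 and 1213 in glucose Cd-10 and 2244, 3851 and 3648 in glucose Cd-6. Its fold of glucose over fructose was 5.51, and it ranged from 4.70 to 7.06 with 1 library left out. The fructose cultures of A00144 varied over a wide range on each day, whereas the glucose cultures of a day lay close together.

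The highest counts of the genes lower in fructose were those of A09038 and A04437. A09038 gave 3970, 4995 and 3787 in fructose Cd-10 and 2945, 2270 and 4570 in fructose Cd-6, against 6937, 6209 and 6173 in glucose Cd-10 and 5716, 8272 and 7024 in glucose Cd-6, a fold of glucose over fructose of 1.79. A04437 gave 1559, 1588 and 1659 in fructose Cd-10 and 1048, 1404 and 1429 in fructose Cd-6, against 1846, 1991 and 2549 in glucose Cd-10 and 2314, 3017 and 2561 in glucose Cd-6, a fold of 1.64. In both genes the sugars were closer at Cd-10 than at Cd-6. A05221 and A09306 showed the widest separations. A05221 averaged 193 ± 73.0 in fructose Cd-10 and 92.9 ± 52.4 in fructose Cd-6, against 849 ± 190 in glucose Cd-10 and 542 ± 51.5 in glucose Cd-6 (SD, n = 3 each), so that the lowest glucose library exceeded the highest fructose library 1.89-fold. A09306 held 267, 179 and 130 in fructose Cd-10 and 34.8, 208 and 36.2 in fructose Cd-6, against 486, 553 and 756 in glucose Cd-10 and 492, 1350 and 822 in glucose Cd-6, with a distance of 1.82-fold. A05221 was expressed 4.87-fold and A09306 5.21-fold more in glucose.

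Some of the chosen genes had neighbouring ID numbers. Another chosen gene lay within 3 ID numbers of 15 of the 104 genes (14.4%), while a chosen gene lay within 3 ID numbers of 493 of the 7632 other genes that could be chosen (6.46%). These shares were not tested, and the files do not say whether the numbers follow the order of genes in the genome. Of the 9 pairs within 3 ID numbers, 6 had the same direction, and of the 3 pairs of directly consecutive IDs 3 had. Since 73 of the 104 genes were lower in fructose, many pairs share a direction whatever their IDs, and these counts were not tested. The longest run was A05108, A05109 and A05110, all lower in fructose. In fructose, A05108 averaged 308 ± 18.3 at Cd-10 and 255 ± 31.3 at Cd-6, against 552 ± 160 at Cd-10 and 405 ± 102 at Cd-6 in glucose (SD, n = 3 each). A05109 averaged 63.0 ± 34.6 at Cd-10 and 52.7 ± 13.9 at Cd-6 in fructose, against 138 ± 45.8 at Cd-10 and 95.2 ± 8.53 at Cd-6 in glucose (SD, n = 3 each). A05110, the gene just inside the threshold of the fold, averaged 75.8 ± 6.90 at Cd-10 and 86.2 ± 13.3 at Cd-6 in fructose, against 105 ± 1.04 at Cd-10 and 139 ± 22.4 at Cd-6 in glucose (SD, n = 3 each). In the run, A05108 and A05109 had their higher glucose mean at Cd-10, and A05110 at Cd-6.

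The number of genes in each direction depended on how the libraries were scaled to each other. Median-ratio scaling gave 31 higher and 73 lower genes, so that 29.8% were higher in fructose. With factors from trimmed means of M values (TMM) the counts were 28 higher and 74 lower, or 27.5% higher. With library size alone they were 11 and 95, or 10.4% higher, and with the values as deposited 8 and 117, or 6.40% higher. Over the genes that could be chosen, the median log2 of fructose over glucose was 0.02 with median-ratio and 0.01 with TMM factors. It was -0.10 with library size and -0.11 as deposited. All 104 genes kept the direction of their means with TMM, with library size and as deposited. This says little, since genes chosen for a fold of at least 1.5 can hardly be reversed by shifts of this size. The sugars stayed apart for 67 of the 73 lower genes with library size and for all 73 with TMM and as deposited. Of the 31 higher genes they stayed apart for 30 with TMM, 17 with library size and 13 as deposited.

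**Figure D3:**
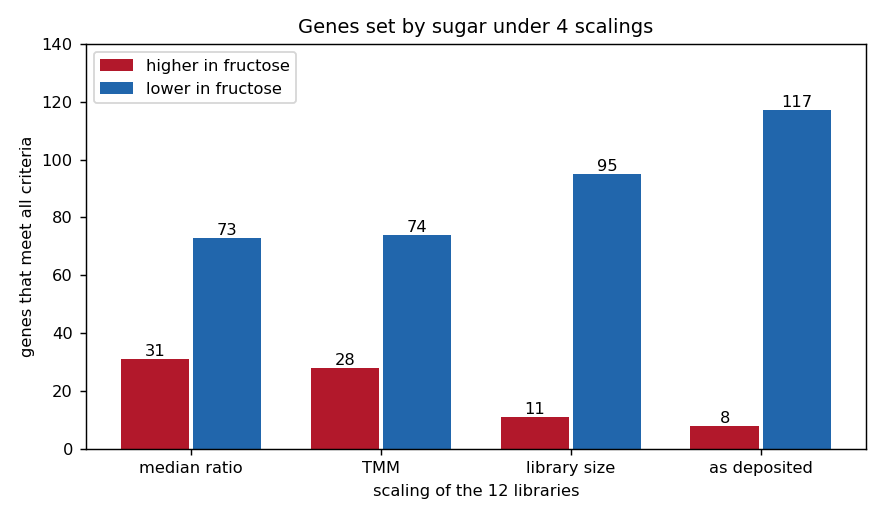
Bars give the number of genes that met all criteria with higher values in fructose (left bar of each pair) or lower values in fructose (right bar) under 4 scalings of the 12 libraries. The counts are 31 and 73 with median-ratio factors, 28 and 74 with TMM, 11 and 95 with library size, and 8 and 117 as deposited.

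The fold between the sugars, whose direction on each day was fixed by the choice of the genes, was not equal in size on the 2 days. For genes higher in fructose, the median fold of fructose over glucose was 1.85 at Cd-10 (range 1.34 to 6.75) and 1.73 at Cd-6 (range 1.21 to 10.2), and the larger fold fell at Cd-10 for 14 and at Cd-6 for 17 of the 31 genes. For genes lower in fructose, the median fold of glucose over fructose was 1.73 at Cd-10 (range 1.26 to 4.40) and 2.15 at Cd-6 (range 1.32 to 45.6). Here the larger fold fell at Cd-10 for 16 and at Cd-6 for 57 of the 73 genes. Most genes had similar folds on the 2 days, with 22 of the 31 and 47 of the 73 within 1.5 times of each other. The folds were 2 times apart or more in 3 of the 31 and in 14 of the 73 genes. Of the 6 glucose libraries, glucose Cd-6 replicate 2 was the highest for 36 of the 73 lower genes, and it was the highest for 23.2% of all genes that could be chosen. It was also the lowest glucose library for 14 of the 31 higher genes. For the lowest library the share over all genes was not taken, so that this count cannot be called particular to them.

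**Figure D4:**
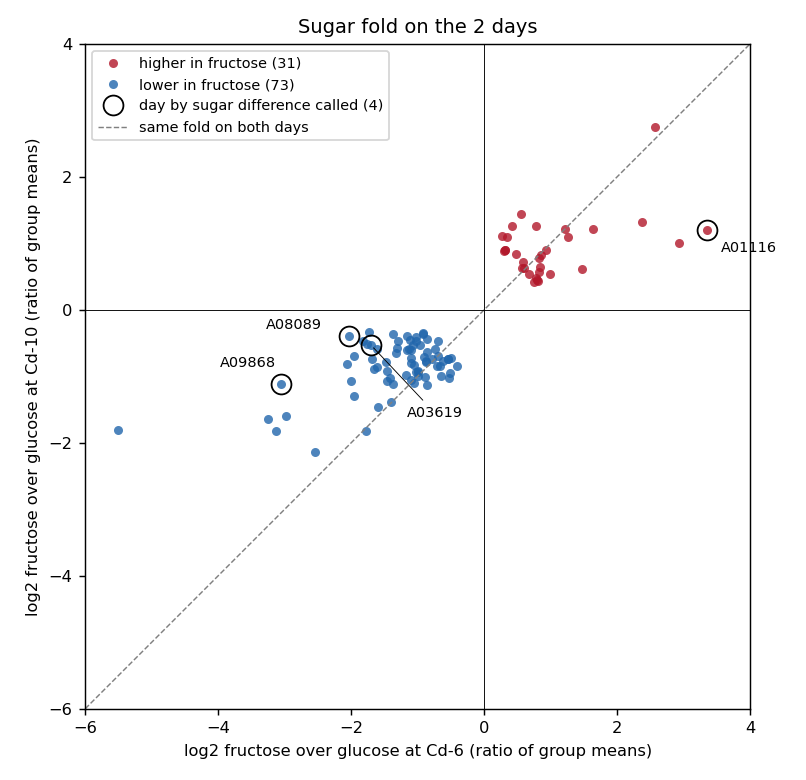
Each point is a chosen gene, with the log2 ratio of the fructose over the glucose group mean at Cd-6 on the horizontal and at Cd-10 on the vertical axis. Red points are the 31 genes higher in fructose, blue points the 73 lower ones, and the dashed line marks equal ratios. Of the blue points, 57 lie above the line, where the ratio is farther from 0 at Cd-6, and rings mark the 4 genes whose change with day differed between the sugars by limma.

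The change with day is another contrast than the one that chose the genes, and it was tested in each sugar with limma on log2(value + 1), with Benjamini-Hochberg adjustment over all genes and a call at an adjusted p below 0.05. Most of the chosen genes were not called with day. In fructose, Cd-10 exceeded Cd-6 for 9 of the 104 genes, where 14.6% of all 10060 genes tested were called, and was below it for 5, where 15.2% were called. In glucose, Cd-10 exceeded Cd-6 for 5 genes, where 12.9% of all 10201 genes tested were called, and was below it for 8, where 11.3% were called. Altogether 80 of the 104 genes were called in neither sugar, 11 in fructose and not in glucose, 10 in glucose and not in fructose, and 3 in both. Called in neither sugar were thus 76.9% of the chosen genes, against 57.9% of the 9978 genes tested in both sugars. For fructose and not glucose the shares were 10.6% of the chosen and 17.7% of all genes, for glucose and not fructose 9.62% and 12.2%, and for both sugars 2.88% and 12.2%. The chosen genes were called with day less often than all genes, but libraries of 1 sugar that must all lie on 1 side of the other sugar limit the change that a chosen gene can have, and the shares were not tested.

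In fructose, A01116 and A04426, which are both higher in fructose, fell most with culture age. A01116 dropped by 2.51 on the log2 scale between Cd-10 (472, 241 and 321) and Cd-6 (2047, 2933 and 1108), with an SE of 0.34 and an adjusted p of 6.2e-04 from limma. A04426 gave 332, 209 and 332 at Cd-10 and 1454, 1591 and 643 at Cd-6, and it dropped by 2.01 (SE 0.33, adjusted p 0.0017). Their profiles were the most alike of those compared, with a Pearson's r of 0.97 over the 12 libraries, which share the same scaling and fall into the same 4 groups. In glucose A04426 stayed low, at 137, 112 and 186 in Cd-10 and 204, 92.7 and 188 in Cd-6. The difference between its changes in the 2 sugars was not called by limma over 12 libraries (-1.90, SE 0.52, adjusted p 0.057). Among the genes called in fructose, the largest rises belonged to A09868 and A00479, which are both lower in fructose. A09868 gave 237, 236 and 248 at Cd-10 and 63.0, 99.5 and 69.4 at Cd-6, a log2 change of 1.64 (SE 0.21, adjusted p 4.0e-04). A00479 gave 232, 259 and 270 at Cd-10 and 131, 136 and 167 at Cd-6, a log2 change of 0.80 (SE 0.17, adjusted p 0.0069). The Cd-10 and Cd-6 cultures did not overlap in any of these 4 genes, and each kept its call in all 16 alternative settings.

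The count of 14 genes called in fructose was 5 without fructose Cd-6 replicate 1 and 9 without fructose Cd-6 replicate 2. The remaining calls were weaker than those above. They include A02480 with a log2 change of 0.56 (adjusted p 0.044), which was lost in 7 of 16 alternatives (adjusted p 0.0097 to 0.13), and without each of fructose Cd-10 replicates 2 and 3 and fructose Cd-6 replicates 1, 2 and 3.

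Among the genes called in glucose, the largest declines belonged to genes lower in fructose and the largest rises to genes higher in fructose. A00144 gave 1345, 1025 and 1213 at Cd-10 and 2244, 3851 and 3648 at Cd-6, a log2 change of -1.41 (SE 0.23, limma adjusted p 0.0073), while in fructose its change was -0.03 (SE 0.71, adjusted p 0.98). The difference between its 2 changes was not called by limma over 12 libraries (1.39, SE 0.89, adjusted p 0.36). A00054 gave 231, 211 and 130 at Cd-10 and 477, 372 and 452 at Cd-6, a log2 change of -1.21 (SE 0.25, adjusted p 0.014). For both genes, all Cd-10 cultures lay below all Cd-6 cultures. A02403 gave 481, 623 and 403 at Cd-10 and 344, 123 and 232 at Cd-6, a log2 change of 1.21 (SE 0.36, adjusted p 0.046). A05485 gave 722, 430 and 797 at Cd-10 and 204, 392 and 329 at Cd-6, a log2 change of 1.08 (SE 0.31, adjusted p 0.041). The calls of the 2 rising genes were less stable than those of the 2 declining ones. A02403 lost its call in 7 and A05485 in 7 of 16 alternatives, with adjusted p up to 0.15 and 0.16, A00144 in 1 (0.11, with all 12 libraries in 1 fit) and A00054 in 1 (0.053, without glucose Cd-6 replicate 3). The calls of A02403 were lost without each of glucose Cd-10 replicates 1, 2 and 3 and glucose Cd-6 replicates 2 and 3, and those of A05485 without each of glucose Cd-10 replicates 1 and 3 and glucose Cd-6 replicates 1 and 3. The count of 13 genes called in glucose was 4 without glucose Cd-10 replicate 1, 5 without glucose Cd-10 replicate 2 and 5 without glucose Cd-6 replicate 3.

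The 3 genes called in both sugars, named because they were so few and after their values had been seen, took 3 different courses. A06653, lower in fructose, was lower at Cd-10 under either sugar, at 43.2, 46.4 and 31.9 in fructose Cd-10 and 73.8, 67.4 and 67.4 in fructose Cd-6, against 77.5, 79.2 and 84.2 in glucose Cd-10 and 141, 167 and 165 in glucose Cd-6. Its log2 change was -0.79 in fructose (adjusted p 0.039) and -0.96 in glucose (adjusted p 0.012). A08282, higher in fructose, was higher at Cd-10 under either sugar, by 0.55 in fructose (adjusted p 0.037) and 0.99 in glucose (adjusted p 0.02). A08089, lower in fructose, moved in opposite directions, at 334, 319 and 303 in fructose Cd-10 and 180, 182 and 235 in fructose Cd-6, against 411, 357 and 486 in glucose Cd-10 and 667, 945 and 840 in glucose Cd-6. Its log2 change was 0.67 in fructose (adjusted p 0.014) and -0.96 in glucose (adjusted p 0.013). None of these calls held in all 16 alternatives of its sugar. In fructose, A06653 lost its call in 8 of them, A08282 in 7 and A08089 in 1, with adjusted p up to 0.13, 0.12 and 0.069. The 1 loss of A08089 was without fructose Cd-6 replicate 1, while A06653 and A08282 lost theirs without any single fructose library except fructose Cd-10 replicate 2 for A06653 and fructose Cd-10 replicate 3 for A08282. In glucose, A06653 lost its call in 3, A08282 in 4 and A08089 in 3, with adjusted p up to 0.056, 0.084 and 0.058. For each of the 3 genes these included the fits without glucose Cd-10 replicate 1, glucose Cd-10 replicate 2 and glucose Cd-6 replicate 3.

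**Figure D5:**
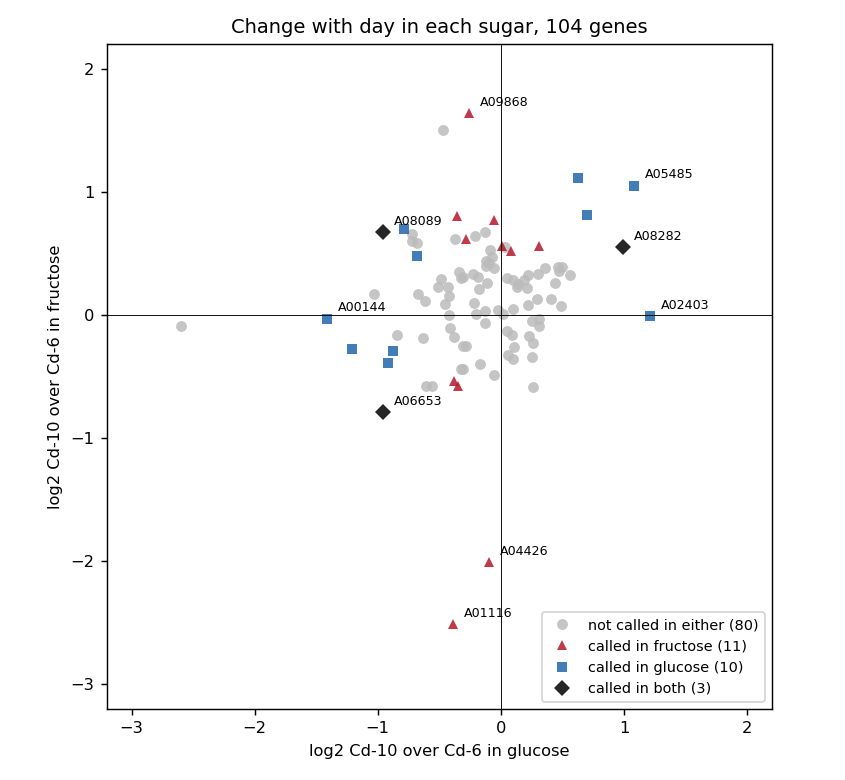
Each point is a chosen gene, with its log2 change of Cd-10 over Cd-6 in glucose on the horizontal and in fructose on the vertical axis. Triangles are the 11 genes called in fructose and not in glucose, squares the 10 called in glucose and not in fructose, diamonds the 3 called in both and grey circles the 80 called in neither. A01116 and A04426 lie lowest, at -2.51 and -2.01 in fructose, and A00144 lies farthest left of the called genes, at -1.41 in glucose.

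Whether the change with day differed between the sugars, which is the same question as whether the fructose to glucose ratio differed between the days, was tested with all 12 libraries. The difference (change in fructose minus change in glucose) was called for 4 of the 104 genes (3.85%), against 4.67% of all genes tested. It was positive for 3, where 1.83% of all 10387 genes tested were called, and negative for 1, where 2.84% were called. A01116 had a difference of -2.10 on the log2 scale (SE 0.47, limma adjusted p 0.028), with a change of -2.51 in fructose and of -0.39 in glucose. A09868 had a difference of 1.91 (SE 0.33, adjusted p 0.011), and its change in glucose was -0.26, at 478, 472 and 604 in Cd-10 and 827, 436 and 650 in Cd-6. A08089 had a difference of 1.64 (SE 0.25, adjusted p 0.0067). In all of these genes the ratio between the sugars was nearer to 1 at Cd-10 than at Cd-6.

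The fourth gene, A03619, was named because it completed the count. It gave 1296, 1240 and 1001 in fructose Cd-10 and 679, 872 and 975 in fructose Cd-6, against 1589, 1453 and 2073 in glucose Cd-10 and 3092, 2905 and 2211 in glucose Cd-6, a difference of 1.18 (SE 0.27, adjusted p 0.034). A09868 and A08089 kept the call in all 21 alternatives, with adjusted p up to 0.042 and 0.028. A01116 lost it in 7 (up to 0.088) and A03619 in 8 (up to 0.099). For A01116 these were the fits without fructose Cd-10 replicate 2 or 3, fructose Cd-6 replicate 1 or 2, glucose Cd-10 replicate 1 or 2, or glucose Cd-6 replicate 3. For A03619 they were the fits without fructose Cd-10 replicate 1 or 2, fructose Cd-6 replicate 1 or 2, glucose Cd-10 replicate 1 or 2, or glucose Cd-6 replicate 2, and the fit with a replicate block (0.052).

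As a group, the genes lower in fructose had a positive median difference. It was 0.43 on the log2 scale over the 73 genes, with 58 positive and 15 negative values, against a median of 0.00 over all genes tested. Their median change with day was 0.21 in fructose and -0.23 in glucose, where the medians of all genes were 0.00 and -0.00. The 31 genes higher in fructose had a median difference of -0.10, with 12 positive and 19 negative values. The genes were chosen by the same fructose and glucose values, unlike all genes tested, and they are not replicates of each other. These medians and counts are therefore a description and were not tested. Without glucose Cd-6 replicate 2, the library that lay apart, the median of the lower genes was 0.24, with 51 positive and 22 negative values, and that of the higher genes 0.00. With library size as the scaling, the median was 0.72 for the lower genes, against 0.30 for all genes. The part of glucose Cd-6 replicate 2 in the larger folds at Cd-6 was not tested beyond leaving it out.

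The genes on the study's own lists could not be chosen, and their sugar difference over both days was tested instead. The study had selected these lists on the glucose libraries. By limma over all 12 libraries, 8 of the 93 listed genes were higher in fructose, where 3.60% of all 10387 genes were called, and 7 were lower, where 5.23% were called. Among the genes listed under biosynthesis of amino acids, 5 of 12 were higher and 1 was lower in fructose, with a median log2 difference of 0.31, against 0.01 over all genes. Under biosynthesis of secondary metabolites 7 of 50 were higher and 3 lower (median 0.12), and under carbon metabolism 2 of 29 were higher and 4 lower (median 0.04). Many genes stand on more than 1 list. The other lists held at most 1 called gene in a direction, and these genes were named after their values had been seen.

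Among the genes on the shorter lists, A07600, listed by the study as a trypanothione reductase under glutathione metabolism, was the 1 gene called of 10, and 1 of 11 in the study's glutathione table. Its count was 1030, 1448 and 790 in fructose Cd-10 and 5838, 4220 and 4806 in fructose Cd-6, against 372, 426 and 860 in glucose Cd-10 and 2674, 1389 and 2448 in glucose Cd-6, a log2 difference of 1.13 (SE 0.23, adjusted p 0.012). Fructose Cd-10 and glucose Cd-10 overlapped, at 790 and 860. A01410, on the starch and sucrose list (1 of 14 lower, 0 higher), gave 6506, 7074 and 7270 in fructose Cd-10 and 168, 168 and 199 in fructose Cd-6, against 6610, 5252 and 9632 in glucose Cd-10 and 1374, 3378 and 1021 in glucose Cd-6. Its log2 difference of -1.62 (SE 0.24, adjusted p 0.0036) came from Cd-6, since the Cd-10 values of the sugars overlapped. A00533, on the glyoxylate and dicarboxylate list (1 of 10 lower), had the same form, at 29672, 42553 and 55461 in fructose Cd-10 and 198, 553 and 301 in fructose Cd-6, against 46687, 38485 and 55971 in glucose Cd-10 and 3819, 7627 and 2753 in glucose Cd-6, a log2 difference of -1.96 (SE 0.29, adjusted p 0.0028). These 3 genes differ in form from the 104 chosen genes, in which the 2 sugars stayed apart over both days.

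A02602, on the yeast cell cycle list (1 of 13 lower) and the yeast meiosis list (1 of 9 lower), had another form. It gave 612, 655 and 623 in fructose Cd-10 and 365, 360 and 384 in fructose Cd-6, against 1140, 940 and 888 in glucose Cd-10 and 492, 502 and 475 in glucose Cd-6. Within each day the sugars did not overlap, but fructose Cd-10 exceeded glucose Cd-6, and the log2 difference was -0.52 (SE 0.09, adjusted p 0.0058). A05242, on the citrate cycle list (1 of 9 higher), had a log2 difference of 0.65 (SE 0.13, adjusted p 0.011), and A04617, on the pyruvate list (1 of 13 lower), one of -0.63 (SE 0.15, adjusted p 0.026). All of these calls held in 21 of 21 alternatives except that of A04617, which was lost in 5 (adjusted p 0.0046 to 0.069), those without fructose Cd-6 replicate 1 or 3, glucose Cd-10 replicate 1 or 3, or glucose Cd-6 replicate 3. The count of 15 listed genes was 9 without fructose Cd-6 replicate 1.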

How the data were processed

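RNA from hyphae of 12 cultures was sequenced, 3 cultures in each of 4 groups taken from the sample labels. According to the study's methods, reads were mapped with Hisat2 and counted with featureCounts, and Cufflinks also stands in the submitters' processing notes. The authors deposited a normalized signal for each gene, which is the read count over a size factor of its library, set within each sugar. With the value of 1 read of its library, 100% of the values came out whole (tolerance 0.01), which recovered 10279983 to 12126094 reads per library. In 3 libraries (fructose Cd-10 replicates 1 and 2, glucose Cd-10 replicate 1) this value lies near 1, but a step of exactly 1 gave only 4.49%, 5.19% and 11.2% whole values.

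Median-ratio factors over the compared libraries brought the values to a common scale, on which they were tested as log2(value + 1), a scale that understates changes of weakly expressed genes, with limma 3.58.1 (lmFit, eBayes with trend, R 4.3.3). Genes entered if 3 or more libraries had a value of 10 or more, p-values were adjusted by Benjamini-Hochberg over all of them, and an adjusted p below 0.05 was called. Day changes used the 6 libraries of a sugar, and the interaction and the listed genes all 12. The alternatives were other scalings, filters and pseudocounts, a replicate block, 1 fit over 12 libraries, each library left out, and count tests on the recovered reads with DESeq2 1.42.0 and edgeR 4.0.16. On these reads edgeR called 3018 genes with day in fructose and 2453 in glucose. The code was tested on simulated data. The sample labels name no batch, and p-values measure the spread between these cultures. The size factors had been set within each sugar. Whether the sugars were also grown or sequenced apart is not stated, and such a difference could not be told apart from sugar.

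Named genes are, in each direction, the 2 with the largest fold, the highest mean and the widest distance, the 2 called with the largest change in each direction of each test, the genes beside each threshold and the longest run of IDs. Others were chosen after their values were seen, and say so. The chosen genes, lists and rules were set with earlier results of these data known. Summaries and figures used Python 3.11.15, numpy 2.4.6, pandas 2.3.3 and matplotlib 3.10.9.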

Additional observations from a re-analysis of the deposited data

Results flagged for a closer look

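The change with day differed between the sugars, by the interaction term of limma over 12 libraries, for 4 of the 104 genes. This is 3.85% of the chosen genes, against 4.67% of all 10387 genes tested. The shares were not tested, and sugars that must lie apart in 1 direction on both days limit the difference a chosen gene can have. The difference in log2 change, fructose minus glucose, was -2.10 for A01116 (adjusted p 0.028), 1.18 for A03619 (adjusted p 0.034), 1.64 for A08089 (adjusted p 0.0067) and 1.91 for A09868 (adjusted p 0.011). In A01116 the fructose cultures declined with age, with 3 of 3 Cd-10 cultures below all Cd-6 cultures. In A03619, A08089 and A09868 all 3 fructose Cd-10 cultures lay above all 3 fructose Cd-6 cultures. By limma within each sugar, the rise of A03619 in fructose was not called (0.48, adjusted p 0.064). Its fall in glucose was called (-0.68, adjusted p 0.043), but lost in 6 of 16 alternatives. A08089 was called in both sugars (0.67 in fructose, -0.96 in glucose), and A09868 in fructose only (1.64, against -0.26 in glucose). With each library left out in turn, the interaction calls of A08089 and A09868 held, and those of A01116 and A03619 were each lost without 7 of the 12 libraries.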

How the results depend on the processing

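The number of chosen genes depended on the scaling and the thresholds. The 31 genes higher in fructose were 11 with library size alone (9 of them shared), 8 as deposited, 75 with no ratio threshold and 9 with a ratio of at least 2. The 73 lower genes were 117 as deposited, 90 with no ratio threshold, 44 with a mean of at least 200 and 32 with a ratio of at least 2. With a library left out, 28 to 55 genes were higher and 74 to 102 lower, and some of the chosen genes dropped out, as without fructose Cd-10 replicate 3 (28 higher, 22 of them shared with the 31). The highest counts of higher genes came without glucose Cd-6 replicate 1 (55), fructose Cd-10 replicate 2 (50) and fructose Cd-6 replicate 3 (49). Leaving out 1 library gave 4 to 13 calls with day in glucose, 5 to 14 in fructose, 2 to 9 interactions and 9 to 21 listed genes, each with fewer samples. The 4 interactions were 8 with DESeq2 and 7 with library size, and 2 without fructose Cd-10 replicate 2, fructose Cd-6 replicate 1, glucose Cd-10 replicate 1 or glucose Cd-10 replicate 2, against 9 without glucose Cd-6 replicate 1. The 15 listed genes were 23 with DESeq2. For these last counts the cause was not tested. Over all genes, DESeq2 called 1029 interactions and limma 485.

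With a replicate block, the 13 genes called with day in glucose were 7 and the 14 in fructose were 8. Deviations from the group means correlated at -0.20 to 0.18 for libraries with the same replicate number and at -0.22 to 0.23 for different numbers. Between fructose Cd-6 and glucose Cd-6, same numbers gave 0.10, 0.18 and 0.08, and different numbers -0.12 to 0.03. With 3 cultures per group, these values cannot decide whether the numbers pair the cultures. Of 482 alternative values of single genes, 398 stayed past the threshold in the same direction, 84 did not and 0 were reversed. The folds with a library left out, the sugar separation of the chosen genes under each scaling, and the medians without glucose Cd-6 replicate 2 were added after seeing the data.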
